A study of Macaca mulatta with 2 samples.

Results

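The genes described here are 32 members of the actin and smooth muscle filament system: actins, myosin heavy and light chains, calponins, tropomyosins, and the proteins that regulate or anchor them. They were taken by symbol, and all 32 were found in both count matrices, among 24037 listed features of which 16453 carried a symbol. The samples were 2 droplet-based single-cell libraries of trabecular meshwork tissue from rhesus macaques. One came from spontaneous primary open-angle glaucoma monkeys and is labelled glaucoma, and the other came from healthy controls and is labelled normal. The labels give no number of animals or eyes, no age, sex or eye pressure, and no treatment for either library. The study asked which cell types and genes take part in the contraction and relaxation of the meshwork in glaucoma.

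Contraction rests on myosin filaments that pull on actin filaments. Smooth muscle cells use their own isoforms, such as ACTA2 and ACTG2 for actin and MYH11 for myosin, while nearly all other cells build a similar apparatus from the cytoplasmic isoforms ACTB, ACTG1, MYH9 and MYH10. Tropomyosins, calponins and caldesmon sit along the thin filament, myosin light chain kinase switches the motor on, and desmin, alpha-actinin and vinculin tie the filaments to each other and to the membrane. In the outflow pathway of the eye, the ciliary muscle pulls the trabecular meshwork open, and meshwork cells have contractile properties of their own.

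The glaucoma library held 10624 barcodes with 38765808 unique molecular identifiers (UMIs, 1 per captured molecule), and the normal library held 7028 barcodes with 25042621 UMIs. After filtering, 8337 glaucoma and 5385 normal cells remained, with a median of 2751 UMIs in glaucoma and 2702 in normal, and 11 of the kept barcodes occurred in both libraries. Cells were grouped into 20 clusters without using any of the 32 genes, and clusters were named from markers that hold none of them. The muscle-like class had 696 glaucoma and 1064 normal cells, and the trabecular meshwork-like class had 1720 glaucoma and 738 normal cells. Levels are counts of a gene in each 1000000 UMIs of the class (CPM). The 15 trabecular meshwork markers summed to 30509 CPM in glaucoma and 39192 in normal trabecular meshwork-like cells. The 14 muscle markers summed to 13667 CPM in glaucoma and 13837 in normal muscle-like cells. Both classes were named from these same markers, so the sums are no independent check of the names. The 7 other classes compared had at least 50 cells in each library. The kit reads the 3-prime end, so levels are not scaled by gene length and splice forms of 1 gene (TPM1, CALD1, MYLK) cannot be told apart. With 1 library per group there is no test between animals, and all intervals are 95% intervals for counting error only. Actin genes resemble each other closely, and how shared reads were assigned is not given in the sources used here.

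The 7 smooth muscle isoforms were all highest in muscle-like cells in both libraries. ACTA2, the alpha-actin of smooth muscle, stood at 8193 CPM in glaucoma and 7066 in normal muscle-like cells. Pericyte-like cells, which wrap small vessels, followed with 1452 CPM in glaucoma and 793 in normal, and trabecular meshwork-like cells came next with 650 in glaucoma and 300.1 in normal. Below them, the stromal fibroblast-like cells of the glaucoma library had 227 CPM of ACTA2. MYH11, the smooth muscle myosin heavy chain, reached 5434 CPM in glaucoma and 8365 in normal muscle-like cells, and its next class, the pericyte-like cells, had 323 in glaucoma and 336 in normal. ACTG2, the gamma-actin of visceral muscle, was the most confined of the 7, with 837 CPM in glaucoma and 593 in normal muscle-like cells and at most 17.97 in the other classes compared. CNN1, a calponin that restrains myosin, stood at 1443 CPM in glaucoma and 1255 in normal muscle-like cells. Its second class was the trabecular meshwork-like cells, with 141 in glaucoma and 64.6 in normal. TPM1, TPM2 and the regulatory light chain MYL9 were spread more widely. TPM1 had 9380 CPM in glaucoma and 11426 in normal muscle-like cells and 2244 in glaucoma and 1823 in normal pericyte-like cells, and 150 in glaucoma and 136 in normal macrophage-like cells, the lowest of the classes compared. MYL9 had a second home in myelinating Schwann-like cells, at 1236 CPM in glaucoma and 1203 in normal, where the other smooth muscle isoforms were low.

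**Figure D1:**
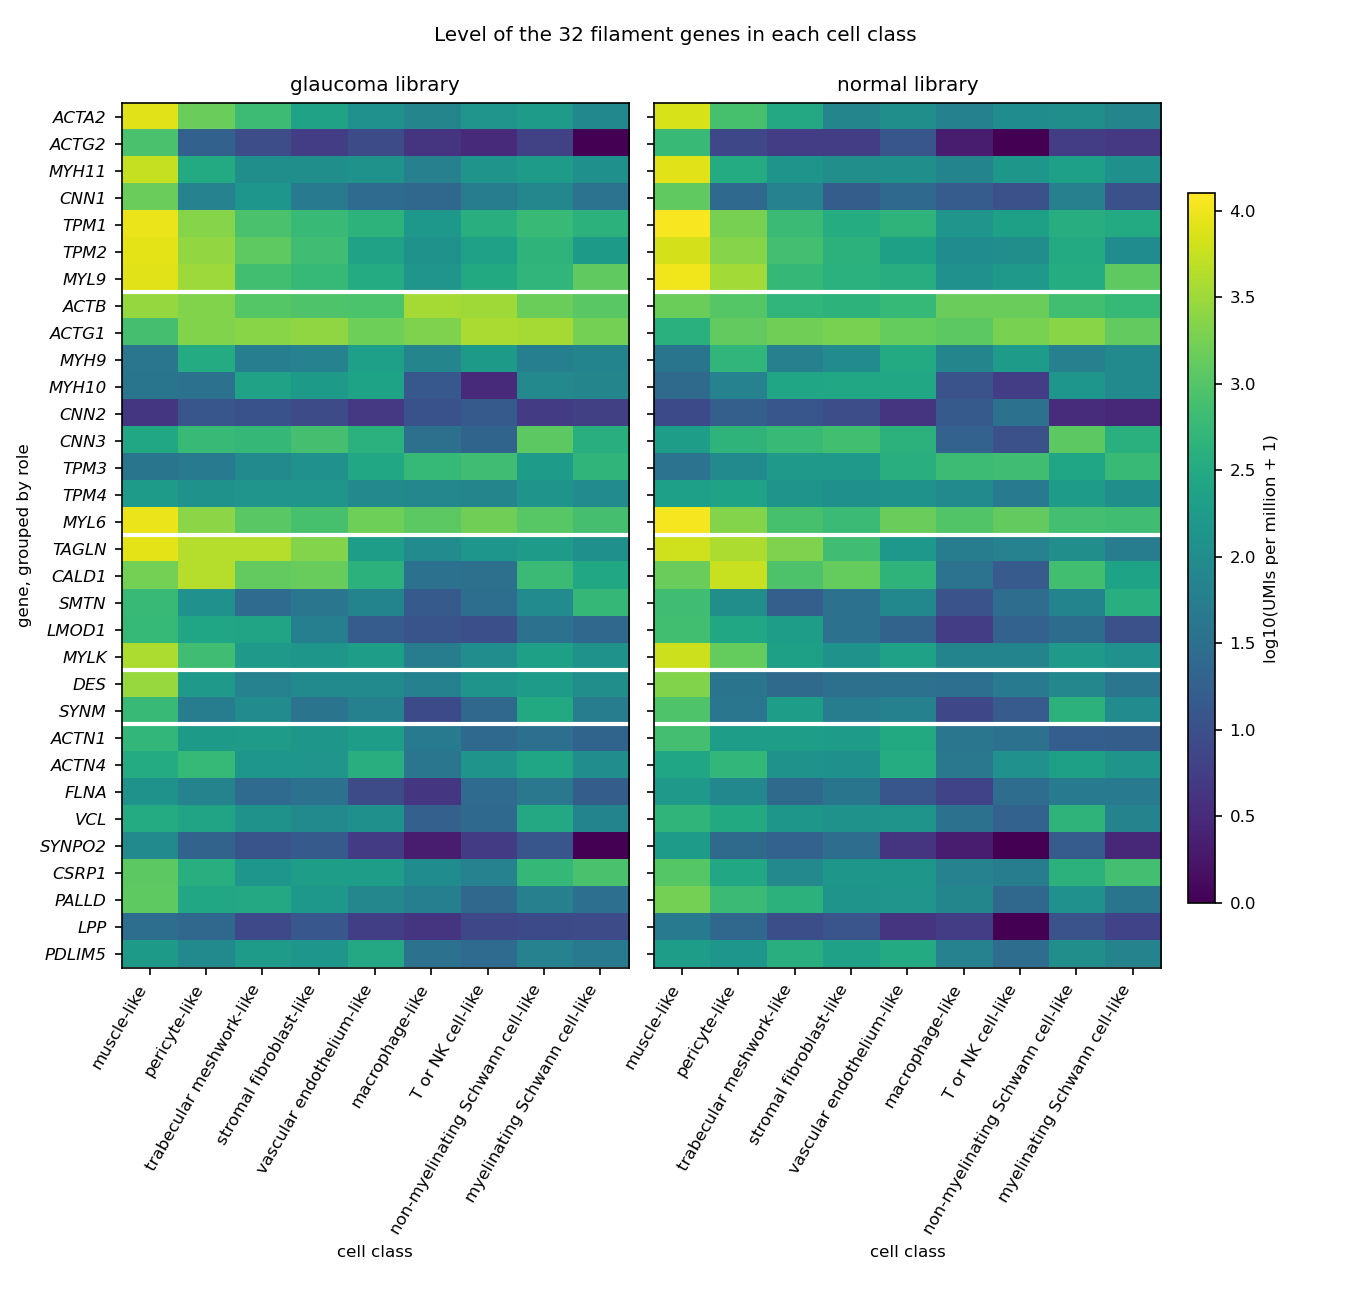
Level of each of the 32 genes (rows, grouped by role, white lines between roles) in 9 cell classes (columns), as log10 of CPM plus 1, with the glaucoma library on the left and the normal library on the right. The smooth muscle isoforms are brightest in the muscle-like column of both libraries, while ACTG1 and TPM3 are darkest there.

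Cytoplasmic isoforms had no common pattern, and ACTG1 and TPM3 were lowest in muscle-like cells. ACTG1, the cytoplasmic gamma-actin, had 781 CPM in glaucoma and 404 in normal muscle-like cells, its lowest class in both libraries, against 3520.1 in glaucoma and 2328 in normal non-myelinating Schwann-like cells. TPM3 behaved likewise, with 38.9 CPM in glaucoma and 35.0 in normal muscle-like cells and 690 in glaucoma and 699 in normal T or NK cell-like cells. ACTB, the cytoplasmic beta-actin, peaked in macrophage-like cells of the glaucoma library at 3535 CPM, whereas in the normal library muscle-like, T or NK cell-like and macrophage-like cells lay close together at 1516, 1467 and 1452 CPM. The non-muscle myosins divided between classes. MYH9 was highest in pericyte-like cells, at 336 CPM in glaucoma and 495 in normal, and MYH10 was highest in vascular endothelium-like cells, at 241 in glaucoma and 287 in normal. The MYH10 interval overlapped that of trabecular meshwork-like cells in glaucoma, at 230.5 CPM, and that of stromal fibroblast-like cells in normal, at 275. CNN3, the non-muscle calponin, reached 1184 CPM in glaucoma and 1167 in normal non-myelinating Schwann-like cells but only 20.0 in glaucoma and 9.32 in normal T or NK cell-like cells. TPM4, a short tropomyosin, had 181 CPM in glaucoma and 204 in normal muscle-like cells and 127 in glaucoma and 235.3 in normal pericyte-like cells. T or NK cell-like cells had less, at 73.2 CPM in glaucoma and 46.6 in normal, from 33 and 10 UMIs. CNN2 was scarce everywhere, at no more than 13.3 CPM in glaucoma and 32.6 in normal in any class compared. MYL6, the essential light chain shared by smooth and non-muscle myosin, was highest in muscle-like cells at 9484 CPM in glaucoma and 11019 in normal. Of the 9 genes grouped here as cytoplasmic isoforms it was the only one with its top level in muscle-like cells in both libraries.

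Of the 5 thin filament and myosin regulators 4 were highest in muscle-like cells in both libraries, as were both muscle intermediate filament genes and 7 of the 9 crosslinkers and linkers, which makes 21 of the 32 genes in all. The exceptions were the caldesmon gene CALD1 and the linkers ACTN4 and PDLIM5. CALD1 had 1754 CPM in glaucoma and 1438 in normal muscle-like cells against 4437 in glaucoma and 5658 in normal pericyte-like cells. ACTN4, a non-muscle alpha-actinin, also peaked in pericyte-like cells, at 554 CPM in glaucoma and 522 in normal. PDLIM5, which binds alpha-actinin, was highest in vascular endothelium-like cells of the glaucoma library (299 CPM) and in trabecular meshwork-like cells of the normal library (391). TAGLN, which encodes the actin-binding protein SM22, was abundant outside muscle as well. It stood at 8603 CPM in glaucoma and 6438 in normal muscle-like cells, 4418 in glaucoma and 3955 in normal pericyte-like cells, and 4326 in glaucoma and 2062 in normal trabecular meshwork-like cells. LMOD1, which nucleates actin filaments in smooth muscle, had 554 CPM in glaucoma and 732 in normal muscle-like cells and 251 in glaucoma and 188 in normal trabecular meshwork-like cells. MYLK, the myosin light chain kinase, had 3936 CPM in glaucoma and 6202 in normal muscle-like cells and 158 in glaucoma and 214 in normal trabecular meshwork-like cells. Schwann-like cells shared some linkers with muscle. SMTN, which binds actin in contractile cells, reached 538 CPM in glaucoma and 380.2 in normal myelinating Schwann-like cells, beside 579 in glaucoma and 691 in normal muscle-like cells. SYNM, an intermediate filament protein that joins desmin, had 313 CPM in glaucoma and 424 in normal non-myelinating Schwann-like cells, beside 579 in glaucoma and 928 in normal muscle-like cells. The vinculin gene VCL had 292 CPM in glaucoma and 462 in normal in the same Schwann-like class, with intervals that overlapped those of muscle-like cells (338 in glaucoma and 474 in normal). Among the linkers, PALLD, which encodes the bundling protein palladin, had 1202 CPM in glaucoma and 1736 in normal muscle-like cells and 293 CPM in glaucoma and 431 in normal trabecular meshwork-like cells. CSRP1, a LIM protein that binds alpha-actinin, had 1182 CPM in glaucoma and 1036 in normal muscle-like cells and 832 in glaucoma and 757 in normal myelinating Schwann-like cells. ACTN1, the other non-muscle alpha-actinin, had 514 CPM in glaucoma and 740.0 in normal muscle-like cells, and its next class, the vascular endothelium-like cells, had 195 in glaucoma and 303 in normal. The filamin gene FLNA, which crosslinks actin at the membrane, was lower throughout, with 123 CPM in glaucoma and 161 in normal muscle-like cells. SYNPO2 had 86.4 CPM in glaucoma and 178 in normal there, and LPP, which sits at adhesion sites, had 29.6 in glaucoma and 48.8 in normal.

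The balance between smooth muscle and cytoplasmic genes of 1 family gave each class a profile. In muscle-like cells, ACTA2 and ACTG2 made 71.7% (exact interval 71.2 to 72.1) of the actin UMIs in glaucoma, against 80.0% (79.6 to 80.3) in normal. Their share was 25.6% in glaucoma and 25.4% in normal pericyte-like cells, 16.3% in glaucoma and 12.4% in normal trabecular meshwork-like cells, 6.19% in glaucoma and 3.22% in normal stromal fibroblast-like cells, and 1.35% in glaucoma and 2.32% in normal macrophage-like cells. The myosin heavy chains were more one-sided in muscle, where the MYH11 share of the UMIs of MYH11, MYH9 and MYH10 was 98.6% in glaucoma and 99.2% in normal. In trabecular meshwork-like cells MYH11 made 27.7% in glaucoma and 29.4% in normal, with intervals that overlapped between libraries. The CNN1 share of calponin UMIs was 83.4% in glaucoma and 85.8% in normal muscle-like cells, 20.5% in glaucoma and 9.45% in normal trabecular meshwork-like cells, and 9.79% in glaucoma and 4.77% in normal pericyte-like cells. Among tropomyosins, TPM1 and TPM2 supplied 98.8% in glaucoma and 98.7% in normal muscle-like cells and still 90.2% in glaucoma and 82.6% in normal trabecular meshwork-like cells. Macrophage-like cells stood at the other end, with 30.1% in glaucoma and 23.9% in normal. TPM1 also has non-muscle products, which these counts do not separate, so this share is not one of smooth muscle forms alone. For the light chains, MYL9, a regulatory chain, was set against MYL6, an essential chain. They are different subunits, so their share is not a balance of smooth muscle and cytoplasmic forms. MYL9 made 46.1% in glaucoma and 47.9% in normal muscle-like cells, and 61.8% in glaucoma and 63.7% in normal myelinating Schwann-like cells. In cells with little myosin or calponin of any kind, the shares rest on few UMIs, such as 38 glaucoma and 11 normal calponin UMIs in T or NK cell-like cells.

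**Figure D2:**
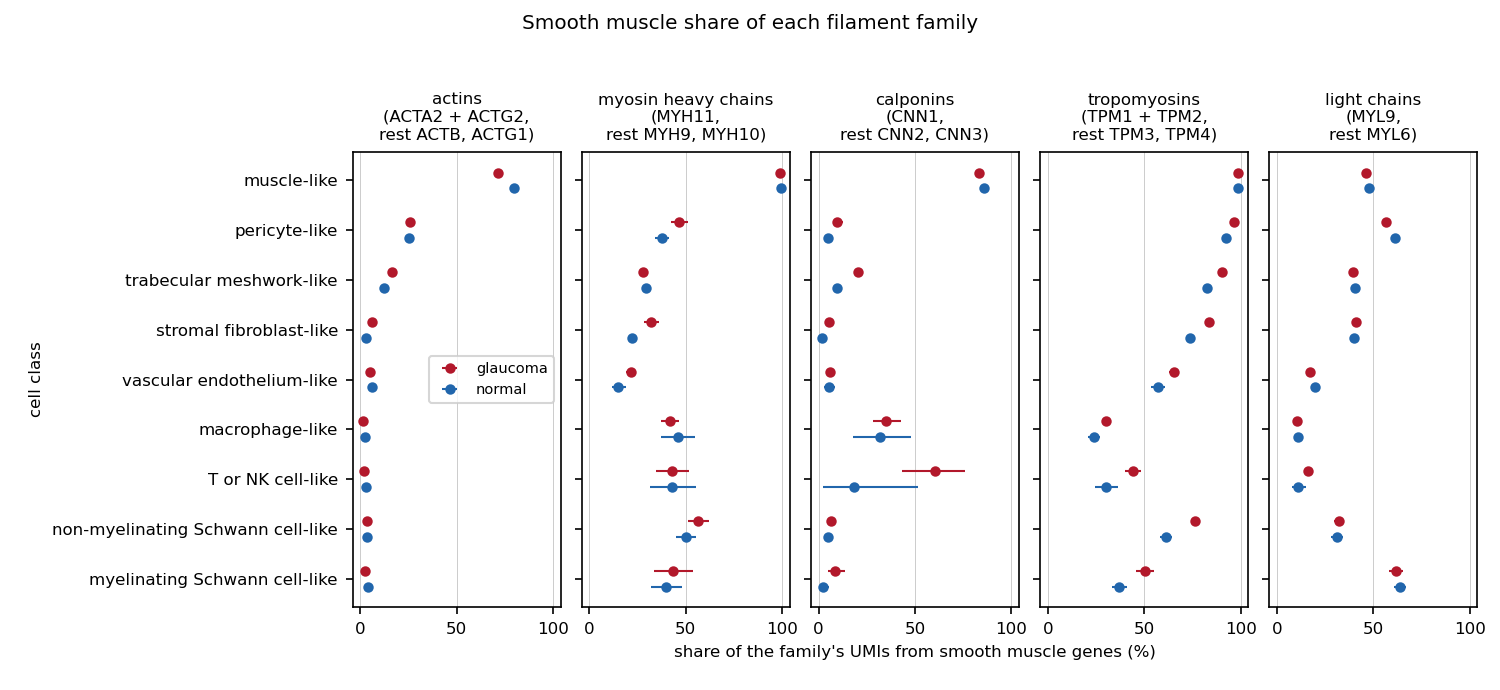
Share of each family's UMIs that came from its smooth muscle genes, in percent, in 9 cell classes (rows). The light chain panel instead sets MYL9, a regulatory chain, against MYL6, an essential chain. In the tropomyosin panel, TPM1 also has non-muscle products that are counted with its smooth muscle forms. Points are the libraries (red glaucoma, blue normal) and bars are exact 95% counting intervals. Actin separates muscle-like cells (71.7% in glaucoma and 80.0% in normal) from all other classes, and tropomyosin ranges from 98.8% in glaucoma and 98.7% in normal muscle-like cells to 30.1% in glaucoma and 23.9% in normal macrophage-like cells.

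The muscle-like class was not uniform. One cluster, with 366 glaucoma and 417 normal cells, expressed RERGL, a marker of vascular smooth muscle, at 4815 CPM in glaucoma and 5576 in normal. The other large cluster, with 259 glaucoma and 626 normal cells, had almost no RERGL but expressed the muscarinic receptor gene CHRM3 at 1529 CPM in glaucoma and 2374 in normal and PCP4 at 15118 in glaucoma and 12310 in normal. Another, smaller cluster of 71 glaucoma and 21 normal cells also carried 5 trabecular meshwork markers. Of the 28 members measured in both libraries, 26 had a log2 ratio between the large clusters of the same sign in both. The other two were CNN1 (0.15 in glaucoma and -0.066 in normal) and PALLD (-0.28 in glaucoma and 0.19 in normal). This is a description of clusters made from the same cells, with no test. Called at 2-fold or more with an interval apart from equality, 10 members were higher and 4 were lower in the RERGL-positive cluster in both libraries. Of all genes, 12.9% were called higher and 11% lower in glaucoma, and 12.1% and 12.3% in normal.

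CALD1 showed the widest gap, with 4447 CPM in the RERGL-positive cluster against 336 in the PCP4-high cluster in glaucoma, and 4699 against 273 in normal (log2 ratios 3.73 in glaucoma and 4.11 in normal). ACTN4 had 862 against 81.9 CPM in glaucoma and 836 against 63.0 in normal. TAGLN had 19348 against 3005 CPM in glaucoma and 17747 against 2159 in normal. The PCP4-high cluster was poor in caldesmon and SM22 messages and still had much ACTA2, at 6889 CPM in glaucoma and 5927 in normal. ACTG2 was higher in the RERGL-positive cluster, with log2 ratios of 2.24 in glaucoma and 2.49 in normal, and so were TPM2, ACTG1, MYH9, CNN3, FLNA and PDLIM5. MYH9, a non-muscle myosin, was low in the PCP4-high cluster, at 12.5 CPM in glaucoma and 13.1 in normal. In the other direction, MYLK had 1664 against 5596 CPM in glaucoma and 2954 against 7406 in normal. DES, the desmin gene, had 1072 against 4276 CPM in glaucoma and 922 against 2493 in normal. SMTN (log2 ratios -2.03 in glaucoma and -1.62 in normal) and SYNM (-1.67 in glaucoma and -1.16 in normal) were lower in the RERGL-positive cluster too. MYH11 leaned the same way without reaching 2-fold, at -0.77 in glaucoma and -0.62 in normal, and CNN1, MYL9 and VCL lay within 0.35 of equality in both libraries. The median mitochondrial share of the cells was 6.31% in glaucoma and 3.49% in normal in the RERGL-positive cluster, against 16.95% in glaucoma and 11.3% in normal in the PCP4-high cluster, and its part in these differences was not tested.

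**Figure D3:**
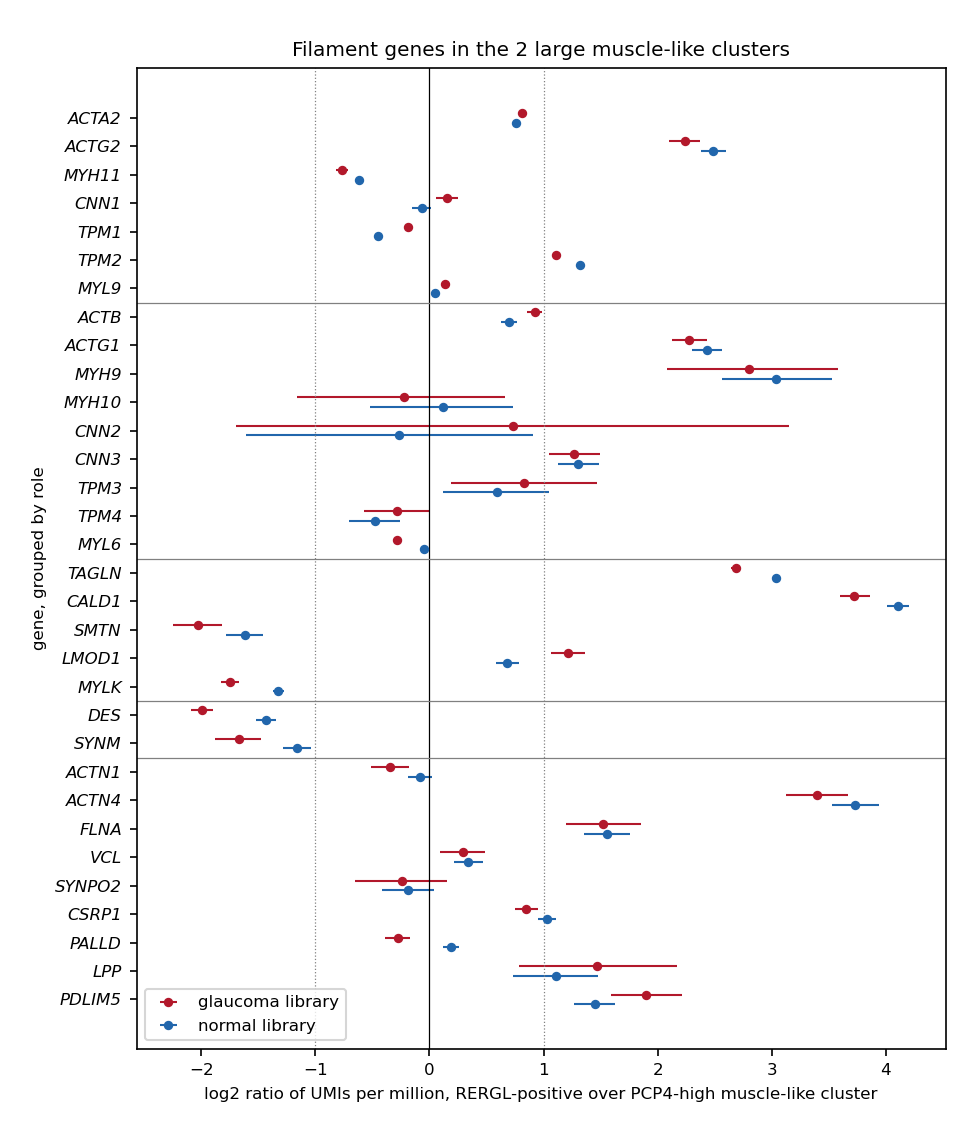
Log2 ratio of CPM in the RERGL-positive over the PCP4-high muscle-like cluster for each of the 32 genes (rows, grouped by role), in the glaucoma library (red) and the normal library (blue), with 95% counting intervals. Dotted lines mark 2-fold. CALD1, ACTN4, MYH9 and TAGLN lie to the right and SMTN, MYLK, DES and SYNM to the left in both libraries.

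Low levels of muscle genes were also found in cells that are not known to make them, which sets a floor for the other classes. In macrophage-like cells ACTA2 stood at 72.5 CPM in glaucoma and 61.5 in normal, and DES stood at 62.8 in glaucoma and 30.7 in normal. T or NK cell-like cells, which are shallower, had 135 CPM of ACTA2 in glaucoma and 97.8 in normal, and 133 CPM of DES in glaucoma and 46.6 in normal. DES in trabecular meshwork-like cells, at 64.5 CPM in glaucoma and 24.7 in normal, lay between the macrophage-like and T or NK cell-like levels in glaucoma and below both in normal. MYH11 in trabecular meshwork-like cells, at 110 CPM in glaucoma and 131 in normal, lay between its levels in macrophage-like cells (59.98 in glaucoma and 69.5 in normal) and in T or NK cell-like cells (131 in glaucoma and 144 in normal). ACTA2, CNN1, TAGLN and LMOD1 lay above the floor. After thinning to 1000 UMIs a cell, an ACTA2 UMI was found in 29.7% of 1705 glaucoma and 14.1% of 715 normal trabecular meshwork-like cells. In macrophage-like cells thinned the same way the shares were 6.53% in glaucoma and 5.11% in normal. Before thinning, 55.2% of glaucoma and 35.9% of normal trabecular meshwork-like cells had an ACTA2 UMI, at median depths of 5588 UMIs in glaucoma and 6923 in normal, against 25.6% of glaucoma and 18.5% of normal macrophage-like cells at 4003 UMIs in glaucoma and 4210 in normal. A TAGLN UMI was found in 84.8% of thinned glaucoma and 62.0% of thinned normal trabecular meshwork-like cells, against 7.59% of glaucoma and 5.11% of normal macrophage-like cells. ACTA2 was concentrated in few meshwork cells, since the tenth of cells with most of it held 61.4% of its UMIs in glaucoma and 81.7% in normal. The tenth of cells with most TAGLN held 34.4% of its UMIs in glaucoma and 50.3% in normal.

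Between the libraries, trabecular meshwork-like cells had higher levels of ACTA2, CNN1 and TAGLN in glaucoma, by about 2-fold, and the difference was smaller when the clusters of the class were given equal weights. All 32 members were measured (at least 100 UMIs in both libraries together), and 5 were called higher and 2 lower in glaucoma, where a call needs a 2-fold difference and an interval that leaves out equality. Of all 7783 genes measured, 5.19% were called higher and 6.14% lower. The members' median log2 ratio was 0.13, beside -0.02 for all genes. ACTA2 had 650 CPM (635 to 666) in glaucoma and 300.1 (286 to 315) in normal cells, a log2 ratio of 1.12 (1.04 to 1.19). CNN1 had 141 CPM in glaucoma and 64.6 in normal (1.13), TAGLN had 4326 in glaucoma and 2062 in normal (1.07), and ACTB had 1058 in glaucoma and 506 in normal (1.06). DES, the fifth, did not exceed its level in T or NK cell-like cells in either library. The lower genes were SYNM, with 92.9 CPM in glaucoma against 194 in normal (-1.07), and PDLIM5, with 185 in glaucoma against 391 in normal (-1.08). Below 2-fold, TPM2 (0.67), CSRP1 (0.74), a partner of alpha-actinin, and LMOD1 (0.41) had intervals above 0, and TPM3 (-0.84) and MYLK (-0.43) had intervals below 0.

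**Figure D4:**
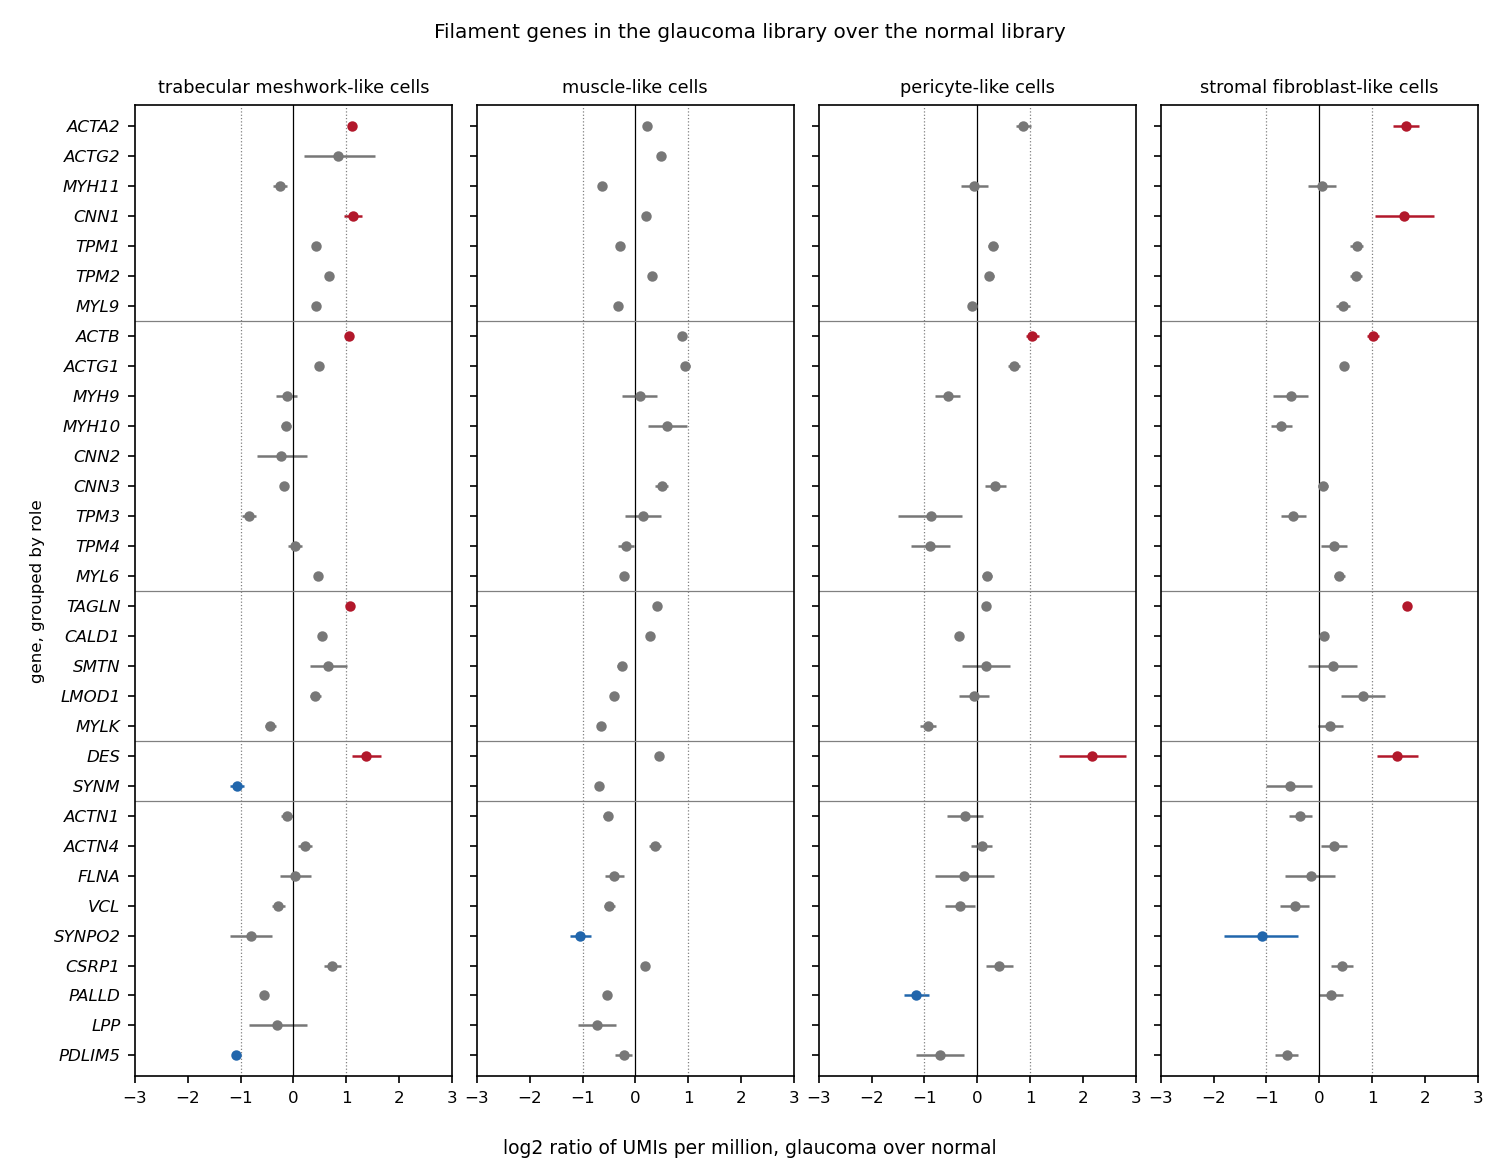
Log2 ratio of CPM in the glaucoma over the normal library for the 32 genes (rows, grouped by role) in 4 cell classes, with 95% counting intervals. Red points were called higher and blue points lower in glaucoma (at least 2-fold, dotted lines, and an interval apart from 0), grey points were not called, and genes with fewer than 100 UMIs are left out. ACTB lies near or above the 2-fold line in all 4 panels, at 1.06, 0.88, 1.04 and 1.02.

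Different clusters held most of the trabecular meshwork-like cells in each library. Cluster 0 held 79.4% of them in glaucoma and 15.99% in normal, cluster 10 held 16.3% in glaucoma and 53.3% in normal, and cluster 15 held 4.30% in glaucoma and 30.8% in normal. In cluster 0, ACTA2 had 688 CPM in glaucoma and 745 in normal (-0.12), TAGLN had 4494 in glaucoma and 3869 in normal (0.22), and CNN1 had 159 in glaucoma and 170.0 in normal (-0.10). These genes did not differ by 2-fold where most glaucoma cells lay. In cluster 10, ACTA2 had 424 CPM in glaucoma and 238 in normal (0.83), TAGLN had 3591 in glaucoma and 1880.2 in normal (0.93), and CNN1 had 65.2 in glaucoma and 54.3 in normal (0.26). In cluster 15, which held 74 glaucoma and 227 normal cells, ACTA2 had 1086 CPM in glaucoma and 199 in normal (2.45), TAGLN had 4447 in glaucoma and 1323 in normal (1.75), and TPM1 had 1271 in glaucoma and 479 in normal (1.41). With the same cluster weights in both libraries, the log2 ratio over the class was 0.49 for ACTA2, 0.61 for TAGLN and 0.29 for CNN1, and none of them was called. The calls of these genes were also lost with the libraries clustered separately (ACTA2 0.21, TAGLN 0.78), with the members among the clustering genes (0.61 and 0.66) and without the mitochondrial limit (0.90 and 0.9999), whereas ACTB stayed called in all of these settings at 1.04 or more. The single normal barcode with most ACTA2 in cluster 0 carried 79 of the 539 ACTA2 UMIs there, and without the top barcode of each library the log2 ratio was 0.09. In cluster 15 the same step gave 2.34 for ACTA2, 1.60 for TAGLN and 1.16 for TPM1.

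The cytoplasmic actins were higher in glaucoma in each of these clusters. ACTB had 1031 CPM in glaucoma against 518 in normal in cluster 0, 1167 in glaucoma against 526 in normal in cluster 10, and 1096 in glaucoma against 404 in normal in cluster 15 (log2 ratios 0.99, 1.15 and 1.44). ACTG1 had 2232 CPM in glaucoma against 1583 in normal in cluster 0, 2733 in glaucoma against 1731 in normal in cluster 10, and 2420.3 in glaucoma against 1350 in normal in cluster 15. MYH11 and MYLK did not go 1 way. In cluster 0 MYH11 was lower, at 114 CPM in glaucoma against 260 in normal (-1.19). MYLK was lower there too, at 141 in glaucoma against 289 in normal (-1.03). The glaucoma level of MYH11 lay between its levels in macrophage-like and T or NK cell-like cells. In cluster 15 both were higher, MYH11 at 205 CPM in glaucoma against 105 in normal (0.97). MYLK had 288 in glaucoma against 180 in normal there (0.68), and both intervals lay above 0. In cluster 10, without the top barcode of each library, MYH11 was at -0.49 and MYLK at -0.05. SYNM and PDLIM5 were below 0 in all 3 clusters, with log2 ratios of -0.999, -0.81 and -0.29 for SYNM and -0.85, -0.98 and -0.38 for PDLIM5. In cluster 15 both intervals included 0, at -0.80 to 0.18 for SYNM and -0.78 to 0.0014 for PDLIM5. In cluster 0, 28 members were measured, with 1 called higher (DES) and 2 lower (MYH11 and MYLK), beside 3% and 6.17% of all genes. Cluster 10 had 2 of 29 called higher (ACTB and DES) and 0 lower, beside 1.80% and 6.30%, and cluster 15 had 5 of 23 higher (ACTA2, TAGLN, TPM1, TPM2 and ACTB) and 0 lower, beside 2.90% and 6.00%. Without the top barcode of each library, the ratios of TPM2 in cluster 15 (0.82) and MYLK in cluster 0 (-0.98) no longer reached 2-fold. The smooth muscle share of actin UMIs was 17.6% in glaucoma against 26.5% in normal in cluster 0, 9.97% in glaucoma against 9.68% in normal in cluster 10, and 24.2% in glaucoma against 10.3% in normal in cluster 15. Over the whole class the share was 3.91 percentage points higher in glaucoma, and with equal cluster weights the difference was -2.53 points.

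**Figure D5:**
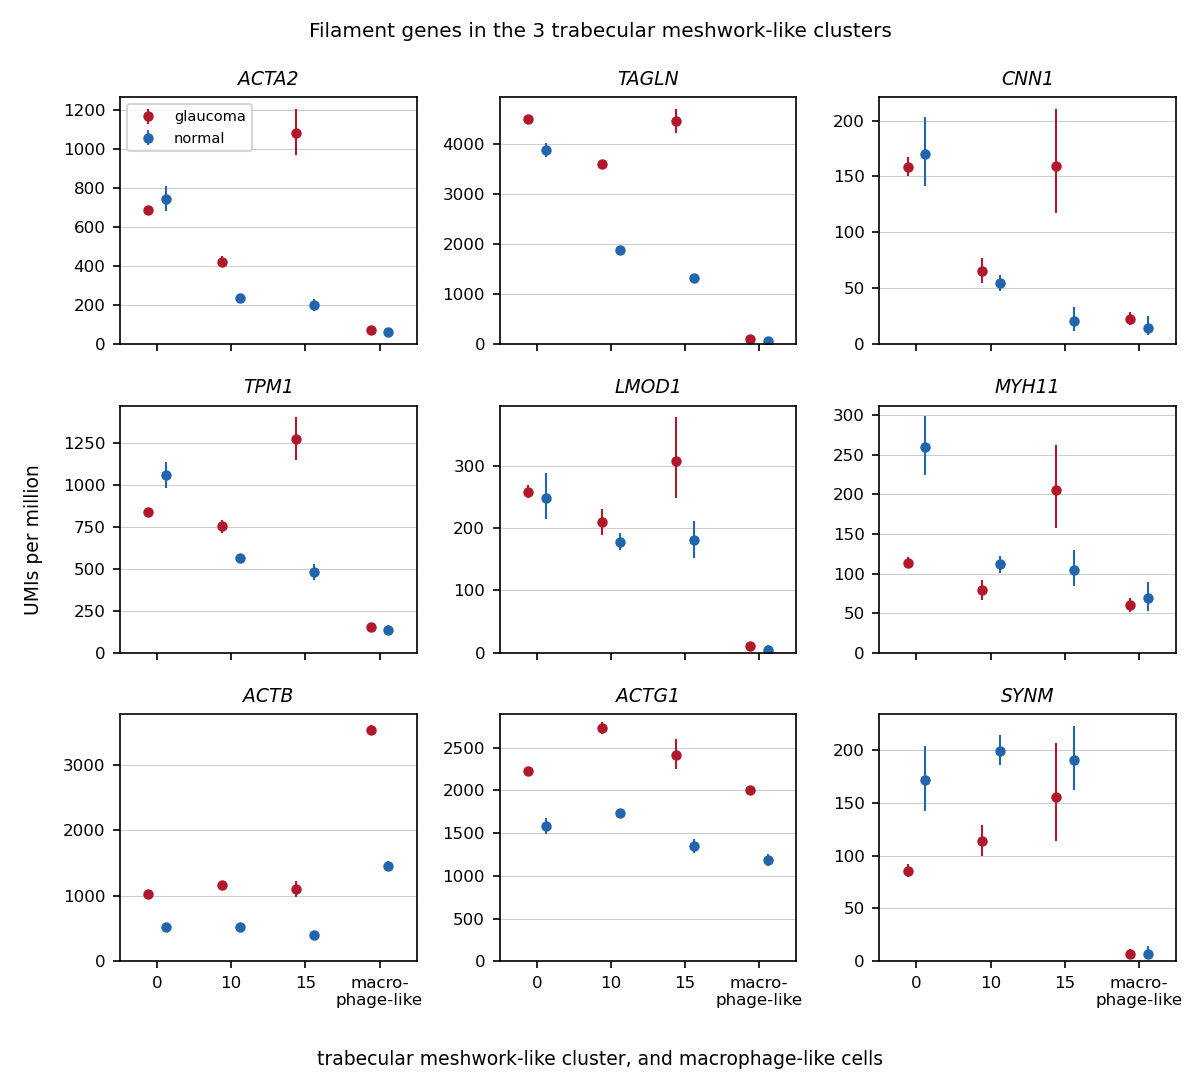
CPM of 9 filament genes in the 3 trabecular meshwork-like clusters (numbered 0, 10 and 15) and in macrophage-like cells, for the glaucoma library (red) and the normal library (blue), with exact 95% Poisson intervals. ACTB and ACTG1 are higher in glaucoma in every cluster, whereas ACTA2 and TPM1 are higher in glaucoma in cluster 15 and not in cluster 0.

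Markers of other cell types also differed between the libraries, in both directions. Of the 10 pericyte markers, 7 were measured in trabecular meshwork-like cells and 5 of them (RGS5, KCNJ8, ABCC9, COX4I2 and NDUFA4L2) were called higher in glaucoma. Summed, they stood at 486 CPM in glaucoma and 310 in normal, and none was at 0. The 14 muscle markers summed to 549 CPM in glaucoma and 1137 in normal, a sum in which PCP4 alone had 241 in glaucoma and 706 in normal. Erythroid genes summed to 738 CPM in glaucoma and 209 in normal. The part of these in the filament gene differences was not tested.

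In muscle-like cells few filament genes were called between the libraries, near the shares of all genes. Of 31 members measured, 0 were called higher and 1 was called lower in glaucoma, beside 3.02% and 3.55% of all genes. At 1.5-fold, 3 were called higher and 5 lower, but the shares of all genes given here are for 2-fold only. The members' median log2 ratio was -0.18, and that of all genes was -0.13. SYNPO2, which links actin bundles in smooth muscle, was the lower gene, with 86.4 CPM in glaucoma against 178 in normal (-1.04). That call was lost when the smallest cluster was left out (-0.93). MYH11 and MYLK were lower in glaucoma by less than 2-fold, at -0.62 and -0.66, while ACTA2 (0.21), ACTG2 (0.50), TAGLN (0.42) and DES (0.46) were above 0. The cytoplasmic actins were again higher in glaucoma. ACTB had 2789.8 CPM in glaucoma against 1516 in normal (0.88), and ACTG1 had 781 in glaucoma against 404 in normal (0.95). Without the mitochondrial limit ACTB was at 0.70 and ACTG1 at 0.10, and TAGLN (-0.17) and ACTG2 (-0.08) turned below 0. The RERGL-positive cluster held 52.6% of glaucoma and 39.2% of normal muscle-like cells, and the PCP4-high cluster held 37.2% in glaucoma and 58.8% in normal. Within the RERGL-positive cluster, 1 of 30 members was called higher, ACTB with 4254 CPM in glaucoma against 2124 in normal (1.00), and 0 were called lower, beside 1.49% and 4.90% of all genes. Within the PCP4-high cluster, 0 of 30 were called higher and 1 lower, LPP with 18.7 CPM in glaucoma against 37.5 in normal (-1.001), beside 1.79% and 4.27%. MYH11 was below 0 in both, at -0.58 in the RERGL-positive and -0.43 in the PCP4-high cluster. Beside these values, the 15 trabecular meshwork markers summed to 3648 CPM in glaucoma and 1864 in normal muscle-like cells, and their part was not tested.

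Pericyte-like cells had 25 members measured, with 2 called higher and 1 lower in glaucoma, beside 2.14% and 5.26% of all genes. ACTB had 2136 CPM in glaucoma against 1038 in normal (1.04), and DES had 163 in glaucoma against 36.3 in normal (2.17). In glaucoma DES was above its level in macrophage-like cells but nearer to that in T or NK cell-like cells (133 CPM). In normal it was below the T or NK cell-like level (46.6 CPM). PALLD, the palladin gene of actin bundles, was lower, with 281 CPM in glaucoma against 625 in normal (-1.15), and MYLK was next at 702 in glaucoma against 1338 in normal (-0.93). Stromal fibroblast-like cells had 29 measured, with 5 called higher and 1 (SYNPO2) lower, beside 2.38% and 10.0% of all genes. The 5 began with TAGLN, at 2210 CPM in glaucoma against 698 in normal (1.66), and ACTA2, at 227 in glaucoma against 72.7 in normal (1.64). CNN1 had 45.9 CPM in glaucoma against 15.02 in normal (1.61), DES had 87.9 in glaucoma against 31.4 in normal (1.48), and ACTB had 920.0 in glaucoma against 453 in normal (1.02). They were the same 5 genes as in the trabecular meshwork-like class, but ACTA2, CNN1 and DES in the normal library were at the level of macrophage-like cells. In glaucoma CNN1 and DES were below their levels in T or NK cell-like cells (51.0 and 133 CPM). With doublets kept only DES of the 5 stayed called, and ACTA2 was at 0.34, TAGLN at 0.19, CNN1 at 0.59 and ACTB at 0.89. Without the mitochondrial limit only DES stayed called too. A cluster of this class held 79 normal cells and none from the glaucoma library. With the same cluster weights in both libraries, 3 members lost their call, and CNN3, CALD1 and MYLK, which were not called, changed sign. The SYNPO2 call was lost in 7 of the 9 alternatives, with a ratio as near to 0 as -0.49. The median of all genes in this class was itself shifted, to -0.23. Of 10 pericyte markers, 5 were measured here and 4 were called higher, with a sum of 626 CPM in glaucoma against 297 in normal, and their part was not tested.

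Set beside each other, the 9 classes showed which members differed in 1 direction throughout. ACTB was higher in glaucoma in all 9 classes, with log2 ratios between 0.64 in vascular endothelium-like and 1.28 in macrophage-like cells, and it was called in 7. ACTG1 was above 0 in all 9 (0.22 to 1.00) without a call, and TPM2 was above 0 in all 9 (0.12 to 1.04) with 1 call, in T or NK cell-like cells. All of these also exceeded the median of all genes in each class. CSRP1 was above 0 in the 8 classes where it was measured (0.14 to 0.74), without a call. ACTA2 (0.13 to 1.64, 5 intervals above 0) and TAGLN (0.16 to 1.66, 7 intervals above 0) were above 0 in the 7 classes where each was measured. Each had 2 calls. CNN1 was above 0 in all 4 classes where it was measured (0.20 to 1.61), and ACTG2 in all 2 (0.50 and 0.85). PDLIM5 was below 0 in the 7 classes where it was measured (-0.11 to -1.08), VCL in all 6 (-0.18 to -0.66), and SYNPO2 in all 3 (-0.81 to -1.07). LPP was below 0 in the 2 classes where it was measured (-0.30 and -0.72), and CNN2 in its only measured class (-0.23). TPM3 was below 0 in 8 of 9, with muscle-like cells the exception at 0.15. DES was above 0 in the 7 classes where it was measured and called in 6, macrophage-like cells among them. T or NK cell-like cells had 8 members measured and 2 called higher (ACTB and TPM2), beside 4.01% of all genes. Macrophage-like cells had 2 of 21 (ACTB and DES), beside 2.69%, and non-myelinating Schwann-like cells had 2 of 25 (the same genes), beside 2.65%. Myelinating Schwann-like cells had 1 of 14 (ACTB), beside 1.84%, and vascular endothelium-like cells had 1 of 25 (DES), beside 1.76%. In these 5 classes 0 members were called lower, beside 2.29%, 4.69%, 5.27%, 3.75% and 1.73% of all genes in the same order.

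Muscle-like cells were 8.35% of glaucoma and 19.8% of normal kept cells. Over all kept cells, of 32 members, 0 were called higher and 7 lower in glaucoma (MYH11, SYNPO2, MYLK, SYNM, PALLD, MYL9 and SMTN), beside 5.64% and 6.64% of all genes. MYH11 had 661 CPM in glaucoma against 2113 in normal (-1.68), and MYLK had 562 in glaucoma against 1656 in normal (-1.56). Without any filter on cells, 1 member was called lower (SYNPO2, -1.18) and 0 higher, beside 5.67% and 4.92%, and MYH11 stood at 1561 CPM in glaucoma against 2529 in normal (-0.70). Dropping only the mitochondrial limit of 20% raised the muscle-like cells to 1605 in glaucoma and 1488 in normal, against 696 in glaucoma and 1064 in normal with it. In these whole-library values, fewer cells of a type and less RNA per cell cannot be told apart. Muscle-like cells supplied 71.3% of ACTA2 UMIs in glaucoma and 92.3% in normal, and trabecular meshwork-like cells supplied 19.5% in glaucoma and 4.04% in normal. For TAGLN the muscle-like share was 28.7% in glaucoma and 61.9% in normal, and the trabecular meshwork-like share was 49.9% in glaucoma and 20.4% in normal. LMOD1 also came mainly from trabecular meshwork-like cells in glaucoma (51.7%, against 18.6% in normal), while ACTG2 came from muscle-like cells in both (93.7% in glaucoma and 97.7% in normal).

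Other genes of the contractile pathway, not among the 32, were counted in trabecular meshwork-like cells. Of 11 serum response factor and myocardin regulators, 10 were measured, with 2 called higher and 3 lower in glaucoma, beside 5.19% and 6.14% of all genes. The LIM protein genes CSRP2 (56.7 CPM in glaucoma against 18.01 in normal, log2 ratio 1.65) and FHL2 (305 in glaucoma against 110 in normal, 1.47) were higher. KLF4, a repressor of smooth muscle genes, was lower (115 CPM in glaucoma against 391 in normal, -1.76), as were MEF2C (13.03 in glaucoma against 38.3 in normal, -1.55) and MYOCD, the myocardin gene (6.05 in glaucoma against 12.8 in normal, -1.08). Within clusters, CSRP2 and FHL2 were not called in cluster 0 (0.70 and 0.24) or cluster 10 (0.84 and 0.30). KLF4 was called lower in cluster 0 (-1.65) and MEF2C in cluster 10 (-1.31). MYOCD had too few UMIs to be measured in any of these clusters, with 23.2 CPM in glaucoma against 9.66 in normal in cluster 15, and in cluster 15 none of the 5 genes was measured. No member was called in either direction among 5 other actin and myosin genes, 12 actin turnover genes and 17 adhesion and dense body linkers measured.

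Across clusters, the level of each gene was set beside that of ACTA2 over 19 glaucoma and 17 normal clusters, on the log2 scale of CPM plus 10. These points share a library and its depth, so the values are descriptions only. Ranked by the lower of their values in the libraries, the genes most like ACTA2 were TPM1 (Pearson r of 0.95 in glaucoma and 0.93 in normal), CNN1 (0.94 in glaucoma and 0.92 in normal), MYH11 (0.89 in glaucoma and 0.94 in normal) and ACTG2 (0.91 in glaucoma and 0.89 in normal). TPM3 ran opposite at -0.81 in glaucoma and -0.76 in normal, and ACTG1 at -0.66 in glaucoma and -0.68 in normal. ACTB stood between them, at 0.45 in glaucoma and 0.58 in normal.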

How the data were processed

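The deposited values were counts: whole-number UMIs per gene and cell barcode, 1 matrix per library, not normalized. Per the file headers, the authors' matrices were written by Cell Ranger 6.0.0, while the submitters' processing notes name Cell Ranger 4.0 and Seurat 3.0. The genome build and annotation are not given in the sources used here. Of the 24037 features, 15580 had a symbol in the files and 873 took one from a reference table of gene names. Kept cells had at least 500 genes and under 20% mitochondrial UMIs, and predicted doublets were removed (296 glaucoma barcodes, 3.43%, and 45 normal, 0.829%). Cells were clustered together with scanpy 1.11.5 (2000 variable genes without the 32 members, 30 principal components, 15 neighbours, resolution 1), and clusters were named from marker lists when at least 3 markers were raised, which left 3 of 20 clusters unnamed. UMIs were summed per class and library and divided by the total. A difference was called at 2-fold or more when the exact conditional binomial interval left out equality, for genes with at least 100 UMIs in both libraries together. The calling rule was tested on simulated data.

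The text names all 32 members, and of the other pathway lists up to 4 called genes by size in trabecular meshwork-like cells. One of these lists is not reported here. MYOCD, and the markers singled out for clusters and classes, were chosen after their values were seen. The members and lists were chosen with earlier results of these data known. Alternatives changed the filters, the clustering, the scaling, the depth, the cluster weights and the calling threshold. Each value rests on 1 library, so the spread between animals is unknown.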

Additional observations from a re-analysis of the deposited data

Results flagged for a closer look

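Of the 32 genes, 7 had counting intervals on opposite sides of 0 in trabecular meshwork-like and muscle-like cells, as log2 ratios of glaucoma over normal. Above 0 in trabecular meshwork-like and below 0 in muscle-like cells were TPM1 (0.44 and -0.28), MYL9 (0.42 and -0.32), MYL6 (0.46 and -0.22), SMTN (0.66 and -0.26) and LMOD1 (0.41 and -0.40). The cytoplasmic genes MYH10 (-0.13 and 0.61) and CNN3 (-0.18 and 0.50) lay the other way round. None of these ratios reached 2-fold, and with 1 library per group the difference between the classes was not tested. With equal cluster weights in both libraries MYH10 was at -0.53 in trabecular meshwork-like and -0.33 in muscle-like cells, so its opposite signs were lost, and CNN3 stood at 0.03 and 0.31. Without the mitochondrial limit MYH10 was at -0.38, CNN3 at -0.04 and SMTN at 0.16 in muscle-like cells, the same sign as in trabecular meshwork-like cells for each. With the libraries clustered separately TPM1 (-0.0053), MYL9 (-0.023) and SMTN (-0.048) were below 0 in trabecular meshwork-like cells. LMOD1 and MYL6 kept their signs in all alternatives run, with 0.24 and 0.05 as the lowest in trabecular meshwork-like and -0.06 and -0.09 as the highest in muscle-like cells.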

How the results depend on the processing

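No paired analysis was possible because each group has 1 library, and for the same reason no replicate could be left out. Over 1084 recomputed values of single members in a class, 957 kept their sign and side of the calling threshold, 40 lost a call and 24 gained one. Another 63 changed sign, 20 of them in muscle-like, 16 in trabecular meshwork-like, 25 in stromal fibroblast-like and 2 in pericyte-like cells, and in 16 the intervals lay on opposite sides of 0. Most of those 16 came without the mitochondrial limit (8) or with separate clustering (4). Of members that had been called, CNN1 (-0.034) and DES (-1.21) changed sign, both in trabecular meshwork-like cells with the libraries clustered separately. Among members not called, ACTG2 in trabecular meshwork-like cells (0.85) fell to -2.53 (-2.90 to -2.16) with the libraries clustered separately. LMOD1 in stromal fibroblast-like cells (0.83) fell as low as -0.54, CALD1 in muscle-like cells (0.29) as low as -0.62, and FLNA in muscle-like cells (-0.40) reached 0.21.

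In trabecular meshwork-like cells, members called higher and lower (5 and 2) became 9 and 4 at 1.5-fold, 1 and 7 with separate clustering, 1 and 0 with the members among the variable genes, and 2 and 0 with equal cluster weights. Without the mitochondrial limit 2 were higher. These counts in the alternatives, and those that follow for other classes, have no share of all genes beside them. The median of 0.13 became -0.12 with separate clustering. The glaucoma minus normal difference in the smooth muscle share of actin UMIs, 3.91 points, became -6.06 with separate clustering, -0.70 with the members among the variable genes, 1.94 without the mitochondrial limit, -2.53 with equal weights and 4.78 without the top barcodes.

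In stromal fibroblast-like cells the 5 members called higher became 1 with doublets kept and 1 without the mitochondrial limit. In muscle-like cells, members called higher and lower (0 and 1) became 3 and 5 at 1.5-fold, 2 and 0 scaled to the median ratio, and 1 and 0 scaled without mitochondrial, ribosomal and haemoglobin genes. Separate clustering gave 7 higher and a median of 0.24 (from -0.18). The normal RERGL-positive cells then stayed unnamed, and normal muscle-like cells numbered 622, against 1064 in the main setting. The cause of this and of the other changes was not tested. After thinning 1 was higher, and with the members among the variable genes 1. Without the mitochondrial limit 2 were lower, and for genes with at least 1 UMI 2. With equal weights 0 were lower, and without the smallest muscle-like cluster, an alternative chosen after seeing the data, 0. The actin share difference of -8.30 points became -8.94 with doublets kept, -8.90 with separate clustering, -6.29 without the mitochondrial limit and -7.28 without the smallest cluster. ACTB ranged from 1.04 to 1.13 in trabecular meshwork-like and from 0.70 to 1.08 in muscle-like cells over all settings, and ACTG1 from 0.10 to 2.11 in muscle-like cells. The ranges in muscle-like cells include the separate clustering, which compares unlike mixtures of muscle-like cells.

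Depth limits CNN2, LPP and SYNPO2, which had few UMIs outside muscle-like cells, and T or NK cell-like cells, where 8 members were measured.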
